A study of Mus musculus with 15 samples.

Results

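The angiopoietin and TIE2 genes and a set of endothelial genes were followed across 5 groups of transgenic mice. The 9 genes, Angpt1, Angpt2, Tek, Tie1, Kdr, Flt1, Pecam1, Cdh5 and Emcn, were chosen by name from a list of ligands, receptors and vessel markers, and Angpt1 was singled out because its HR-MDS to tethBCL2 difference on these same arrays had drawn attention. All 9 of 9 were found among the 14860 genes of the value table, and each had 1 probe set. Since the choice of Angpt1 used HR-MDS and tethBCL2 arrays, Angpt1 is described without a test in every comparison that includes either group.

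RNA of Sca1+ spleen mononuclear cells was hybridised to Affymetrix Mouse Exon 1.0 ST arrays. Each of the 5 groups held 3 mice on the FVB/N background, and each mouse gave 1 array. The founder MRP8NRASD12 (mice 8157, 8158 and 8159) carried mutant NRAS under the myeloid MRP8 promoter. The founder tethBCL2 (mice 7758, 7465 and 7466) carried human BCL2 behind a tetracycline operator, with the MMTV LTR driving the tTA transactivator, and the founder MRP8hBCL2 (mice 3012, 3386 and 3391) carried human BCL2 under MRP8. HR-MDS mice (8111, 8019 and 8398) were MRP8NRASD12/tethBCL-2 double transgenics taken on day 80, and AML post MDS mice (3622, 3626 and 3518) were MRP8[NRASD12/hBCL-2] double transgenics taken on day 36. Age and model therefore cannot be told apart between the 2 models, and the founders' ages were not stated. GEO's labels put every mouse, founders included, under the disease state AML. Normal FVB/N controls were not analysed here.

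Angiopoietin 1 and angiopoietin 2 are secreted ligands of TIE2, the receptor tyrosine kinase encoded by Tek. Angpt1 activates the receptor and stabilises vessels, Angpt2 can oppose it, and TIE1 is a related receptor that joins TIE2 in complexes. TIE2 is also carried by hematopoietic stem cells, and Angpt1 is made by mural, stromal and some hematopoietic cells, so transcripts of this system in spleen cells need not come from vessels.

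The arrays differed in ways that bear on these genes. Over all genes, MRP8NRASD12 8157 correlated least with the rest of its group (mean r = 0.976, against 0.981 to 0.994 for every other array), and HR-MDS 8398 had a median neutrophil marker level of 7.99 against 10.45 and 11.01 on the other HR-MDS arrays. Comparisons that crossed between mice with and without the MRP8hBCL2 transgene called 22.4% to 24.2% of all genes, and those within either set 0.0135% to 8.83%. Without MRP8NRASD12 8157, tethBCL2 against MRP8NRASD12, a comparison within 1 set, called 21.8%. No label names a batch, so the transgene and any difference in the handling of the sets cannot be told apart. The Y-linked gene Eif2s3y was low on the 3 MRP8NRASD12 arrays (3.66 to 4.01) and on AML post MDS 3518 (3.64), and at 9.25 to 10.31 on the other 11 arrays. Sex and genotype therefore cannot be told apart between MRP8NRASD12 and tethBCL2 or HR-MDS, and overlap in part between MRP8NRASD12 and AML post MDS. With 3518 low, AML post MDS was also unbalanced for this gene against HR-MDS and MRP8hBCL2, whose arrays were all high. Ly6a, which encodes Sca1, had no probe set named for it alone and was not analysed here, so the Sca1 label was not checked. The human transgenes were not checked either. In bulk samples, fewer cells of a type and less RNA per cell cannot be told apart.

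Promoters are shown for the receptors Tek and Tie1, the members whose values lay closest to those of Angpt1 in the sections that follow. RefSeq promoters on GRCm38.p6, which run from 250 bases before to 50 bases after the start of a gene, were matched for 5 of the 9 genes (Emcn, Flt1, Kdr, Tek and Tie1). AGGAAG, the core of many ETS sites, and GATAAG, the core of many GATA sites, were searched on both strands, and capitals mark the matches, of which none overlapped another. Tek lies at chr4:94739039-94739338 on the + strand and Tie1 at chr4:118489800-118490099 on the - strand.
Tek: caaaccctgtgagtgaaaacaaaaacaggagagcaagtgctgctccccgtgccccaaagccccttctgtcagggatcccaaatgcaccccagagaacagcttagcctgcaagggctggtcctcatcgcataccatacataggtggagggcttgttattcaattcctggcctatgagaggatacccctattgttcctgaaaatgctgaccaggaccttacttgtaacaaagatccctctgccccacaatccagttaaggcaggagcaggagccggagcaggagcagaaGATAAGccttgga
Tie1: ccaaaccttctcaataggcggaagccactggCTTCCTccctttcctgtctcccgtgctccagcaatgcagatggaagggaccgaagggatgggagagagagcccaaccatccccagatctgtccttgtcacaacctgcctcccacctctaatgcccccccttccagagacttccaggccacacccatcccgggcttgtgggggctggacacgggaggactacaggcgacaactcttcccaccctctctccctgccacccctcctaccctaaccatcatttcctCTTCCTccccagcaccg
The Tek window held 1 GATA type match and 0 ETS type matches, and the Tie1 window held 2 ETS type matches, both on the opposite strand, and 0 GATA type matches. Emcn and Flt1 held 2 ETS type matches each and Kdr held neither. AGGAAG was present in 35.4% and GATAAG in 7.44% of all 32851 promoters of the same length. No entry was matched for Angpt1, Angpt2, Pecam1 and Cdh5.

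Angpt1 varied the most of the 9 genes. On the log2 scale its level was 7.28, 6.18 and 6.18 in MRP8NRASD12 mice, 5.11, 4.84 and 4.66 in tethBCL2 mice, and 7.03, 7.08 and 6.29 in HR-MDS mice. Values are given in the order in which the mice were listed. It was 5.88, 5.56 and 6.29 in MRP8hBCL2 mice and 6.10, 5.50 and 6.21 in AML post MDS mice. The 3 tethBCL2 arrays were lower than all other 12. Their values were near those of Angpt2 (4.86 to 5.39 over all arrays), a gene in the lowest 25% by mean level. No detection values were used, so the tethBCL2 values of Angpt1, and the low end of any fold from them, may lie near background. In order, the group means were 6.80 ± 0.44 (SD, n = 3) in HR-MDS, 6.54 ± 0.63 in MRP8NRASD12, 5.93 ± 0.38 in AML post MDS, 5.91 ± 0.36 in MRP8hBCL2 and 4.87 ± 0.23 in tethBCL2. Each group overlapped its neighbour in this order, except that MRP8hBCL2 and tethBCL2 did not. The highest and lowest group means lay 1.93 apart, which is a 3.82-fold difference between HR-MDS and tethBCL2, and 97.5% of all genes had a smaller range of group means. This difference is the one Angpt1 was chosen for and stands as a description. It was 1.79 to 2.19 when any 1 array was left out. HR-MDS lay 0.26 above MRP8NRASD12, and AML post MDS lay 0.87 below HR-MDS with arrays that did not overlap, again without a test. In the comparisons that did not use the chosen contrast, Angpt1 differed between AML post MDS and MRP8hBCL2 by 0.03 (limma, SE 0.31, adjusted p = 0.985). Between AML post MDS and MRP8NRASD12 it differed by -0.61 (SE 0.31, adjusted p = 0.189), a difference that came to -0.24 without MRP8NRASD12 8157.

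**Figure D1:**
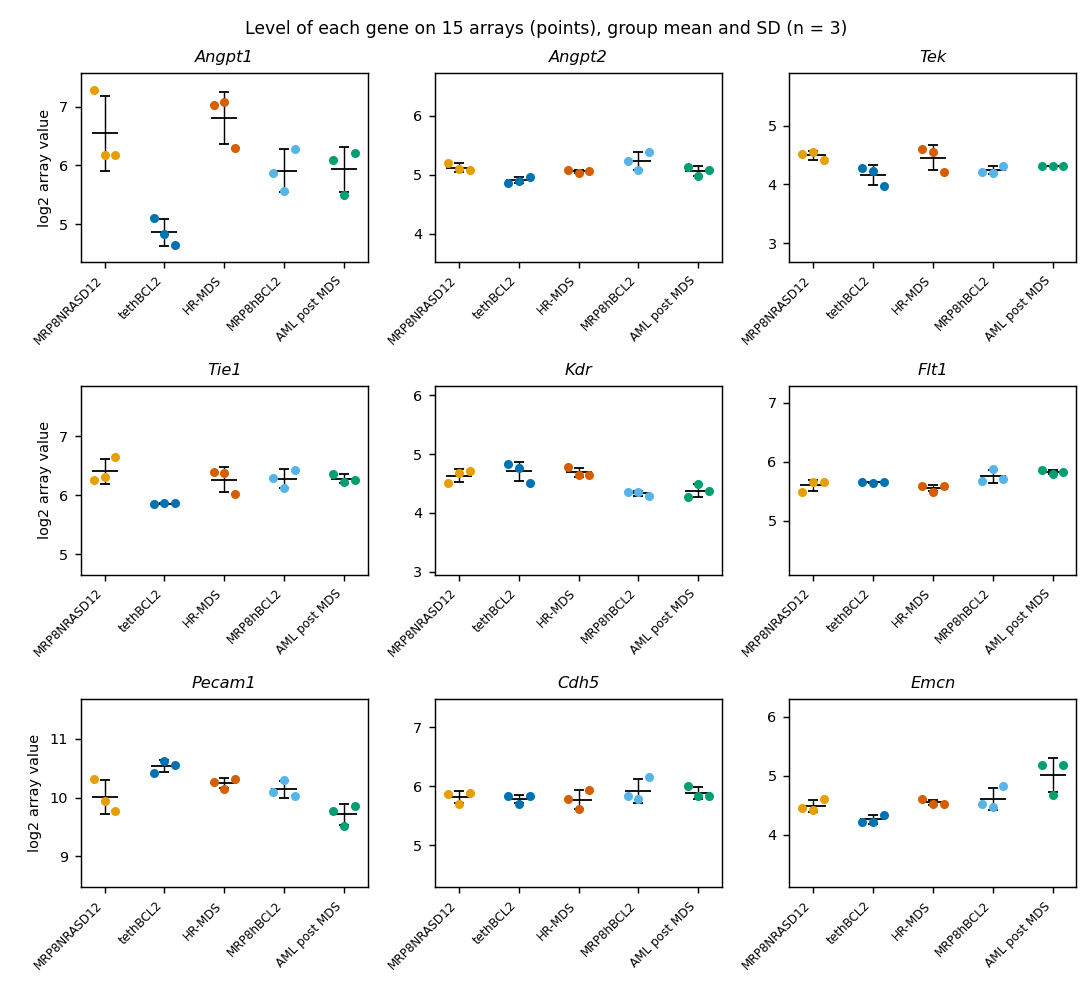
Level of each gene (log2 array value, same span of 3.2 units on every vertical axis) on the 15 arrays by genotype; points are arrays, horizontal bars group means and whiskers SD (n = 3). Angpt1 ran from 4.66 to 7.28, while Cdh5 ran from 5.61 to 6.16.

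The other ligand, Angpt2, moved within a narrow span. Its level was 5.20, 5.10 and 5.07 in MRP8NRASD12, 4.86, 4.90 and 4.97 in tethBCL2, 5.08, 5.04 and 5.06 in HR-MDS, 5.24, 5.08 and 5.39 in MRP8hBCL2 and 5.13, 4.98 and 5.08 in AML post MDS mice. The tethBCL2 arrays were again the lowest, and no AML post MDS or HR-MDS array reached the highest MRP8hBCL2 value. The range of its group means was 0.32, against a median of 0.43 over all genes.

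Tek, the TIE2 receptor gene, was at 4.52, 4.55 and 4.41 in MRP8NRASD12, 4.28, 4.23 and 3.97 in tethBCL2, 4.61, 4.55 and 4.21 in HR-MDS, 4.21, 4.20 and 4.32 in MRP8hBCL2 and 4.32 on all 3 AML post MDS arrays. The lowest array was a tethBCL2 array and the highest an HR-MDS array. By mean level Tek lay in the lowest 25% of genes, as did Angpt2, Kdr and Emcn. No detection values were used, so the signal of these 4 genes may lie near background. The AML post MDS values were identical, and equal to that of MRP8hBCL2 3391 and to the median of all 15 arrays. Exact ties between arrays occurred in 27.2% of all genes and in 5 of the 9 members, and in 86.4% of the tied genes the shared value was the median of the gene. An SD of 0 is therefore no measure of error for Tek in AML post MDS mice, and the cause of the ties was not tested.

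Tie1, the partner receptor gene, was at 5.85, 5.86 and 5.86 in tethBCL2 mice, below every other array. It was at 6.26, 6.30 and 6.65 in MRP8NRASD12, 6.39, 6.37 and 6.02 in HR-MDS, 6.29, 6.12 and 6.43 in MRP8hBCL2 and 6.36, 6.22 and 6.26 in AML post MDS mice. Those 4 groups overlapped one another.

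The VEGF receptor genes, like 13.2% of all genes, lay apart on arrays with and without the MRP8hBCL2 transgene, by narrow gaps. Kdr, which encodes VEGF receptor 2, was at 4.35, 4.36 and 4.29 in MRP8hBCL2 and 4.28, 4.49 and 4.37 in AML post MDS mice. It was at 4.51, 4.68 and 4.71 in MRP8NRASD12, 4.83, 4.77 and 4.51 in tethBCL2 and 4.78, 4.65 and 4.64 in HR-MDS mice, so that the 6 arrays with the transgene lay below the 9 without it, by 0.32 on average. Flt1, which encodes VEGF receptor 1, ran the other way. It was at 5.67, 5.88 and 5.71 in MRP8hBCL2 and 5.87, 5.79 and 5.82 in AML post MDS mice, and at 5.49 to 5.66 on the other 9 arrays, a mean difference of 0.19. The nearest values of the sets were 4.49 and 4.51 for Kdr and 5.66 and 5.67 for Flt1. For Kdr, 4.51 was a tied value equal to the median of the gene, on MRP8NRASD12 8157 and tethBCL2 7466. These sets of arrays did not overlap for 2 of the 9 members, Kdr and Flt1, and for 13.2% of all genes. The split itself was not tested, and single comparisons across it called Kdr in 2 of 3 and Flt1 in 1 of 3. The median level of 10 T cell markers differed between the same sets, 10.20 to 10.91 with and 9.02 to 9.98 without the transgene, and its part in the result was not tested.

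Among the vessel markers, Pecam1 and Emcn differed between groups and Cdh5 did not pass. Pecam1 encodes CD31, an adhesion molecule of endothelium that platelets and leukocytes also carry. It was at 10.32, 9.95 and 9.76 in MRP8NRASD12, 10.42, 10.63 and 10.56 in tethBCL2, 10.27, 10.15 and 10.32 in HR-MDS, 10.09, 10.30 and 10.03 in MRP8hBCL2 and 9.77, 9.52 and 9.85 in AML post MDS mice. The tethBCL2 arrays were the highest of the 15, where Angpt1 and Tie1 were lowest. Emcn encodes endomucin, a sialoglycoprotein of capillary and venous endothelium. Its level was 5.19, 4.68 and 5.17 in AML post MDS mice, 4.45, 4.41 and 4.60 in MRP8NRASD12, 4.60, 4.52 and 4.52 in HR-MDS and 4.52, 4.47 and 4.83 in MRP8hBCL2 mice. It was lowest, at 4.21, 4.22 and 4.34, in tethBCL2 mice. Cdh5 encodes VE-cadherin, the junction protein that defines endothelium, and its group means ran from 5.77 ± 0.16 (SD, n = 3) in HR-MDS to 5.92 ± 0.20 in MRP8hBCL2. That range of 0.15 was small, since 9.89% of all genes had a smaller one. Cdh5 had 1 shared value, its median of 5.83, on 5 arrays, and Emcn its median of 4.52 on 3. Such ties may narrow the ranges and SDs, and their effect was not tested.

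A limma F test over the 5 groups called 4 of the 8 members tested, Pecam1 (adjusted p = 0.00422), Emcn (adjusted p = 0.007), Kdr (adjusted p = 0.0198) and Tie1 (adjusted p = 0.0301), while 34.3% of all genes were called. Flt1 (adjusted p = 0.0926), Angpt2 (0.108), Tek (0.128) and Cdh5 (0.761) did not pass. Of the called members, Emcn and Kdr lay in the lowest 25% of genes by mean level, where signal may lie near background.

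Each double transgenic model was then compared with its founders to ask what the added oncogene changed. In HR-MDS against tethBCL2 mice, limma called 0 of 8 members and 0.451% of all genes, a share that ran from 0.0404% to 1.78% with 1 array left out (lowest without tethBCL2 7758 or 7465 or HR-MDS 8111 or 8019, highest without MRP8hBCL2 3391). Tek and Tie1, and 1680 of all 14860 genes, had an unadjusted p under 0.05. The test named in the study's methods also called 0 members after adjustment. Tie1 was 0.41 higher in HR-MDS (SE 0.13, adjusted p = 0.213) with no overlap between the groups, and Tek was 0.30 higher (SE 0.11, adjusted p = 0.325) with overlap. Pecam1 differed by -0.29, Emcn by 0.29, Angpt2 by 0.15 and Flt1 by -0.10, so that with Tie1 the groups did not overlap for 5 of 8 members, beside 26.1% of all genes. Cdh5 and Kdr differed by -0.01 and -0.02. Without MRP8NRASD12 8157 and HR-MDS 8398, the differences of Tie1 and Tek came to 0.53 (adjusted p = 0.0577) and 0.42 (adjusted p = 0.08). This omission was chosen after the data were seen. HR-MDS 8398 was the lowest HR-MDS array for both genes, so leaving it out had to widen both differences. In HR-MDS against MRP8NRASD12 mice, 0 of 8 members and 0.0135% of all genes were called, and 0 members had an unadjusted p under 0.05 or passed the methods' test after adjustment. All 8 differences lay between -0.14 and 0.24.

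In AML post MDS against MRP8hBCL2 mice, limma called 0 of 9 members and 1.93% of all genes. Pecam1 was at -0.43 (SE 0.14, adjusted p = 0.134) and Emcn at 0.41 (SE 0.14, adjusted p = 0.141). These were the members with an unadjusted p under 0.05, beside 2344 of all 14860 genes, and the methods' test called 0 members after adjustment. In AML post MDS against MRP8NRASD12 mice, 1 of 9 members was called, against 22.4% of all genes, and the methods' test called 0 after adjustment. Emcn rose by 0.53 (SE 0.14, adjusted p = 0.0127), with higher values on all 3 AML post MDS arrays, and its adjusted p rose to at most 0.0581 when AML post MDS 3622 or 3518 was left out.

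Between the models, AML post MDS against HR-MDS, 4 of 8 members were called and 24.2% of all genes. The methods' test called 1 of the 4, Flt1, after adjustment. Emcn rose by 0.47 (SE 0.14, adjusted p = 0.0229) and Flt1 by 0.27 (SE 0.09, adjusted p = 0.0317), while Pecam1 fell by 0.53 (SE 0.14, adjusted p = 0.0128) and Kdr fell by 0.31 (SE 0.10, adjusted p = 0.0432). Each of the 4 had no overlap between the groups, as had 40.3% of all genes. When arrays were left out in turn, Pecam1 lost its call without AML post MDS 3626 (adjusted p = 0.0572) and with no other array left out, whereas Emcn, Flt1 and Kdr lost theirs without 4, 5 and 10 of the 15 arrays in turn. These included AML post MDS 3622 and 3518 and HR-MDS 8019 and 8398 for all 3 genes.

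**Figure D2:**
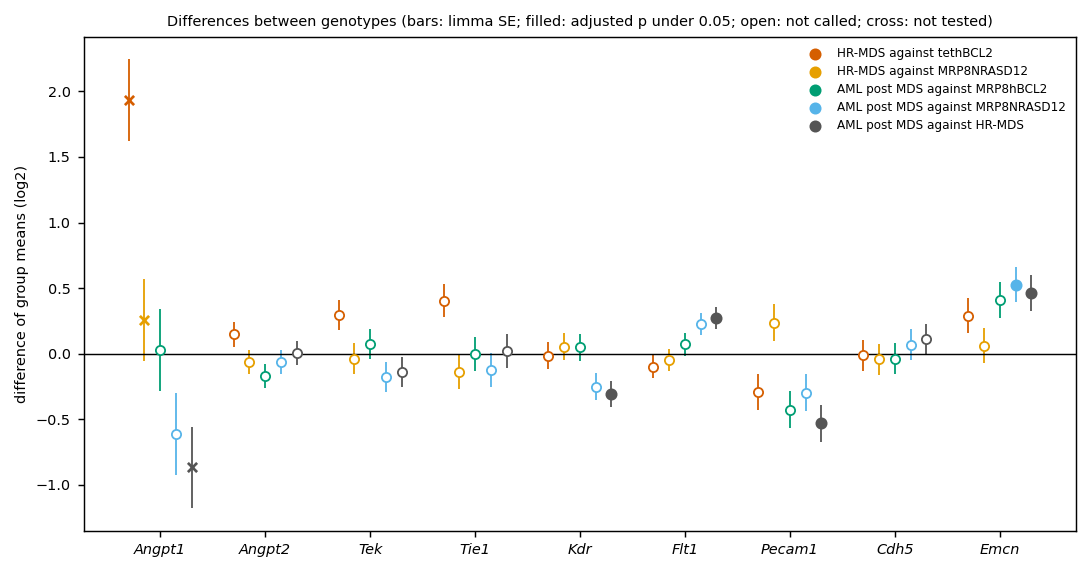
Difference of group means (log2, first group minus second) for each gene in 5 comparisons; bars are limma standard errors, filled points passed an adjusted p of 0.05, open points did not and crosses were not tested. Angpt1 reached 1.93 in HR-MDS against tethBCL2, and the other 8 genes lay between -0.53 and 0.53.

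The founders also differed from each other. In tethBCL2 against MRP8NRASD12 mice, 2 of 8 members and 8.83% of all genes were called, and 0 members by the methods' test after adjustment. Tie1 fell by 0.55 (SE 0.13, adjusted p = 0.0189) and Pecam1 rose by 0.53 (SE 0.14, adjusted p = 0.0325). Angpt1, without a test, differed by -1.68. With array medians subtracted, the difference of Tie1 came to -0.34 and was no longer called (adjusted p = 0.0721). Tie1 lost its call without MRP8NRASD12 8159 or any tethBCL2 array, and Pecam1 without MRP8NRASD12 8158 or 8159 or any tethBCL2 array. In MRP8hBCL2 against tethBCL2 mice, 3 of 8 members and 22.6% of all genes were called, and 0 members by the methods' test after adjustment. Kdr fell by 0.37 (SE 0.10, adjusted p = 0.0172), Angpt2 rose by 0.32 (SE 0.09, adjusted p = 0.0207) and Tie1 rose by 0.42 (SE 0.13, adjusted p = 0.0295), and Angpt1 differed by 1.04 without a test. With array medians subtracted, Tie1 and Angpt2 came to 0.26 (adjusted p = 0.15) and 0.16 (adjusted p = 0.212) and were no longer called. All 3 calls were lost without tethBCL2 7758 or 7465 or MRP8hBCL2 3391, and Tie1 also without tethBCL2 7466 or MRP8hBCL2 3012.

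Whether mutant NRAS moved a gene differently on the BCL2 backgrounds was tested as a difference of differences. It called 0 of 8 members and 0% of all genes. Angpt2 and Tie1, and 684 of all 14860 genes, had an unadjusted p under 0.05. Angpt2 differed between the backgrounds by -0.32 (SE 0.13) and Tie1 by -0.40 (SE 0.18), and the value for Angpt1, -1.91, was not tested.

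The other members followed Angpt1 to very different degrees, and the degree depended on whether groups were compared. The 15 arrays fall into 5 groups and are not independent points. Over them, the Pearson r of Angpt1 with the other 8 members ran from -0.431 to 0.806. The median was 0.188, beside 0.072 over all genes. It turned to -0.147 when each array's median was subtracted. The median over all genes was not computed after that step, so no background stands beside this value. The receptor genes were the most alike, Tek with r = 0.806 and rho = 0.667 and Tie1 with r = 0.695 and rho = 0.607. Tek was among the lowest 25% of genes by mean level. Without the 2 arrays farthest from the median of each gene, r came to 0.686 for Tek and 0.526 for Tie1, and with array medians subtracted it came to 0.454 and 0.490. After the group means were taken out, r was 0.592 for Tek and 0.257 for Tie1, and the median over the 8 members was 0.318, beside 0.087 over all genes. Without MRP8NRASD12 8157 and HR-MDS 8398 these within-group values came to 0.492 for Tek, 0.511 for Tie1, 0.672 for Angpt2, 0.763 for Emcn and 0.532 for Cdh5, and to -0.004 for Pecam1, -0.119 for Kdr and -0.244 for Flt1. Their median was then 0.501, beside 0.183 over all genes. With all 15 arrays, Angpt2 had r = 0.542 across and 0.597 within groups, and Emcn 0.338 and 0.422. Over all arrays the endothelial junction gene Cdh5, with 5 arrays at 1 shared value, had r = 0.037, Kdr -0.041, Pecam1 -0.271 and Flt1 -0.431. All these values are descriptions without a p.

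None of the 8 genes most like Angpt1 was among the 33 other endothelial markers measured. So few of 14860 genes would rarely reach 8 places, so this does not show whether Angpt1 followed endothelial genes. Of 14860 genes, Meis1 had the highest r, 0.927, with rho = 0.932 and r = 0.914 within groups. Meis1 encodes a homeobox factor of stem and progenitor cells, and on the arrays its level was 7.20 in the MRP8NRASD12 mouse with the highest Angpt1 and 5.44 in the tethBCL2 mouse with the lowest. Kit, the stem cell factor receptor gene, followed with r = 0.895, rho = 0.871 and 0.708 within groups. The next 6 were Osbpl1a (0.886), Epb41l4b (0.868), Lpl (0.855), Slc18a2 (0.852), Pon3 (0.848) and Cpq (0.842). Without MRP8NRASD12 8157 and HR-MDS 8398, r with Meis1 was 0.908 and with Kit 0.913, and within groups 0.918 and 0.561. Lpl then came to 0.220 within groups, from 0.604 with all arrays.

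**Figure D3:**
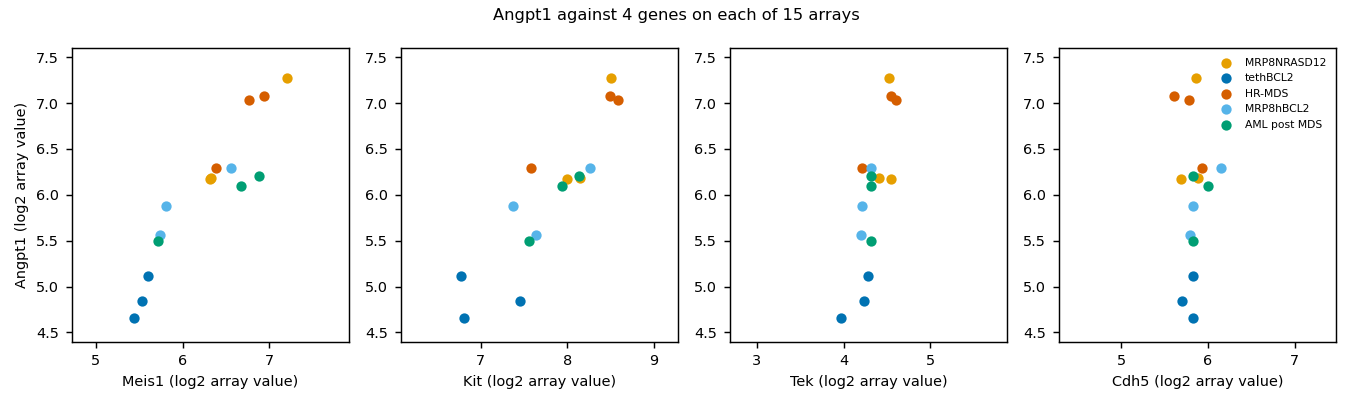
Level of Angpt1 against Meis1, Kit, Tek and Cdh5 (log2 array values, the same span on every horizontal axis); points are the 15 arrays, coloured by genotype. Angpt1 rose with Meis1 (r = 0.927) and Kit (r = 0.895), with Tek over a narrow span (r = 0.806), and showed r = 0.037 with Cdh5.

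Across all arrays, group differences included, the lists nearest to Angpt1 among 12 were the myeloid and progenitor lists. The median r with Angpt1 was 0.741 over 14 neutrophil markers, 0.680 over 13 monocyte and macrophage markers and 0.608 over 20 stem and progenitor markers, a list that holds Meis1 and Kit. It was 0.498 over 10 erythroid, 0.488 over 7 plasma cell, 0.398 over 15 megakaryocyte and platelet and 0.314 over 11 mast cell and basophil markers. The 33 other endothelial markers had a median of 0.105, from -0.570 to 0.816, the 16 genes of the angiopoietin and VEGF pathway 0.084 and the 17 stromal and mural markers 0.071. B cell and T cell markers had medians of -0.113 and -0.236. Within groups the order was another. The B cell list had the highest median (0.505), then monocyte and macrophage (0.482), plasma cell (0.412), progenitor (0.374), erythroid (0.348) and neutrophil (0.255) markers, and the other endothelial markers had -0.243. Without MRP8NRASD12 8157 and HR-MDS 8398 the highest were the plasma cell (0.588), progenitor (0.509) and erythroid (0.457) lists, the B cell list had 0.323, the neutrophil list 0.131 and the other endothelial markers 0.101. The array medians of the neutrophil list ran from 5.56 to 6.09 in tethBCL2, 7.99 to 11.01 in HR-MDS and 10.79 to 12.13 in MRP8NRASD12 mice. Those of the progenitor list ran from 6.19 to 6.34, 7.00 to 7.99 and 7.67 to 7.78 in the same groups, and their part in the Angpt1 difference was not tested.

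**Figure D4:**
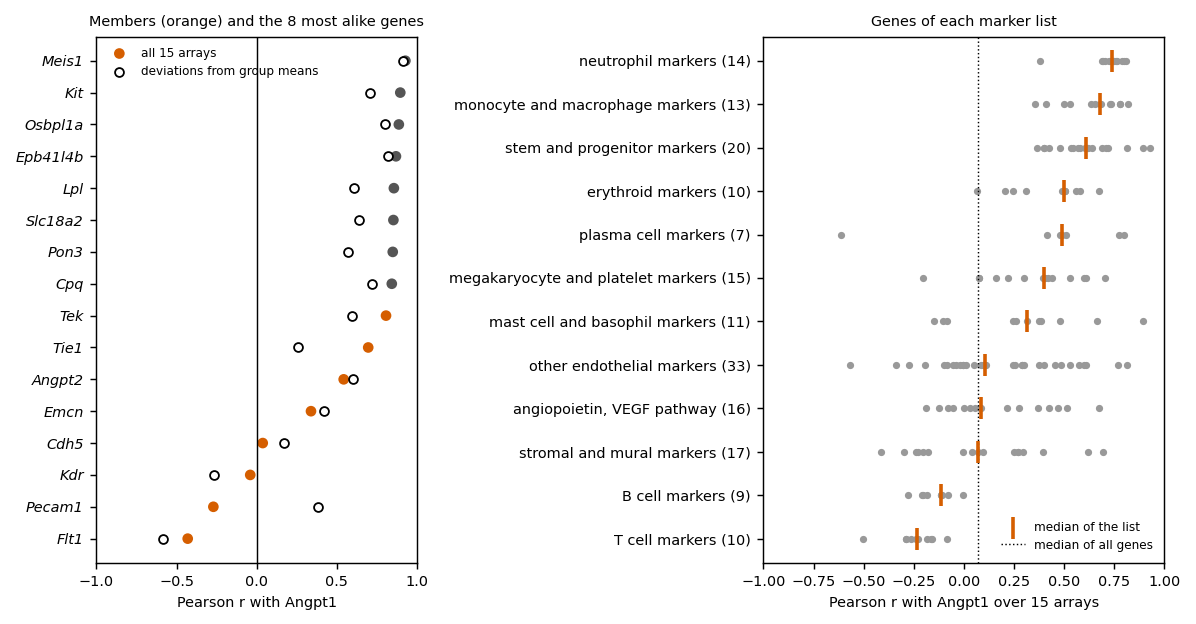
Pearson r with Angpt1 over 15 arrays, left for the 8 other members (orange) and the 8 most alike genes (grey), with open circles for r after group means were taken out, and right for the genes of 12 marker lists (grey) with each list's median (orange bar) and the number of genes in parentheses. Meis1 stood at 0.927, and the median of the other endothelial markers at 0.105 lay near that of all genes at 0.072.

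The other members had other neighbours. The 3 genes most like Tie1 were Camp (r = 0.947), a neutrophil granule gene, F5 (0.941) and Rgs18 (0.936). Pecam1 was most like Parp14 (0.967), Tec (0.960) and Arntl (0.957), and its r with Tie1 was -0.696. Tek was most like Nxt1 (0.869), Rab38 (0.850) and Lpl (0.845), and Lpl was also among the 8 genes nearest to Angpt1. Emcn stood nearest to Bard1 (0.935), Parvb (0.930) and Pidd1 (0.928), Kdr to Otx1 (0.942), Fcrlb (0.909) and Olfr887 (0.887), and Flt1 to Mstn (0.869), Ndufb10 (0.867) and Cox10 (0.862). Angpt2 stood nearest to Hid1 (0.893), Ces2g (0.881) and Prss2 (0.853), and Cdh5 to Chac2 (0.865), Tlcd4 (0.806) and Slc22a18 (0.787). None of these 24 places was taken by another member, which 9 members among 14860 genes would rarely do in any case.

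Of 38 other endothelial markers 33 were measured, and the F test called 8 of them (24.2%, against 34.3% of all genes). The widest ranges of group means among the called belonged to Adgrl4 (3.45), an adhesion receptor gene of endothelium, Myct1 (2.32), Erg (2.18), an ETS factor gene shared with the progenitor list, and Bmx (1.11). In HR-MDS against tethBCL2 mice, 3 of the 33 rose and 0 fell (9.09%, against 0.451% of all genes), with a median difference of 0.11 beside 0.04 over all genes. The 3 were Adgrl4 by 2.70 (limma adjusted p = 0.0203), Erg by 1.90 (adjusted p = 0.0203) and Eng by 0.68 (adjusted p = 0.0411), which encodes endoglin. Over all genes, this comparison called 67, but 6 without tethBCL2 7758, 264 without MRP8hBCL2 3391 and 5 by the methods' test. Whether these 3 genes kept their calls under such alternatives was not tested. The r of Adgrl4 and Erg with Angpt1 was 0.769 and 0.816, and within groups 0.758 and 0.351. Both genes were called in the comparison that Angpt1 was chosen for, so a high r over the same arrays is partly built in. Calls in HR-MDS against tethBCL2 were not particular to endothelial markers. They took in 92.9% of neutrophil, 23.1% of monocyte and macrophage and 15% of stem and progenitor markers, and no gene of any other list.

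Of 20 listed genes of the angiopoietin and VEGF pathway 16 were measured, and the F test called 4 (25%, against 34.3% of all genes). These were Itga5, which encodes the fibronectin receptor subunit alpha 5, Itgb1, its beta 1 partner, the ligand gene Vegfb and the adaptor gene Dok2. In HR-MDS against tethBCL2 mice 0 of the 16 were called, and in AML post MDS against HR-MDS mice 2 rose and 1 fell (18.8%, against 24.2% of all genes). Itga5 rose by 1.42 (limma adjusted p = 0.000744) and Dok2 by 0.66 (adjusted p = 0.0103), and Itgb1 fell by 0.66 (adjusted p = 0.0424).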

How the data were processed

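Expression was measured on Mouse Exon 1.0 ST arrays of Sca1+ spleen cells from 15 mice in 5 groups, taken from the sample titles. For each array the authors deposited log2 values of probe sets, analysed with EASANA and FAST DB annotations on mm9. The methods kept probes detected above background in enough arrays of a condition for their own tests; no detection values were used here. How probes were summarized and arrays scaled was not given in the sources used here, and exact ties between arrays may understate the spread. Of 23332 probe sets, 14996 had 1 gene symbol in the platform annotation, 1019 several and 7317 none. Symbols were updated through RefSeq for 14941. The 14860 genes were each read from the probe set with the highest mean (135 genes had several), and 0 value columns were left out.

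All 15 arrays entered 1 limma fit of 5 group means (limma 3.58.1, R 4.3.3), two-sided, with Benjamini-Hochberg adjustment over all genes and a threshold of 0.05. The 3 arrays per group limit the precision. An exact permutation test of 3 against 3 arrays could not go below p = 0.1 and was not used. The limma p-values set differences of group means against a moderated spread between mice within groups, pooled over the 5 groups. The methods named Student's t-test, which was run as an alternative. Correlations over the 15 arrays carry no p. Named genes were all 9 members, the 8 genes with the highest r with Angpt1, the 3 nearest to each other member, and up to 4 genes of a list past the F test with the widest range of group means, and Eng, chosen after its value was seen. The members and lists were chosen with earlier results of these data known. Alternatives were quantile normalization, subtraction of array medians, leaving out the lowest 25% of genes, the mean of probe sets, array weights, eBayes with trend and robust settings, a fit of only the groups compared, the t-test and leaving out each array. Figures were drawn with Python 3.11.15 and matplotlib 3.10.9.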

Additional observations from a re-analysis of the deposited data

How the results depend on the processing

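The count of members called stayed at 0 of 8 under every alternative for HR-MDS against MRP8NRASD12 and for the difference between the BCL2 backgrounds. Array weights called 1 (Tie1) in HR-MDS against tethBCL2, 2 in AML post MDS against MRP8hBCL2 (where quantile normalization called 1), 2 in AML post MDS against MRP8NRASD12 and 6 in MRP8hBCL2 against tethBCL2. In AML post MDS against MRP8NRASD12, quantile normalization called 4 and 0 were called without the lowest 25% of genes, with only the arrays compared and by the t-test, and leaving out 1 array gave 0 to 2. In AML post MDS against HR-MDS, 2 were called after median subtraction and without the lowest 25%, 1 with only the arrays compared and 1 by the t-test, and leaving out 1 array gave 1 to 4. In tethBCL2 against MRP8NRASD12, median subtraction called 1, only the arrays compared and the t-test called 0, and leaving out 1 array gave 0 to 2. In MRP8hBCL2 against tethBCL2 the t-test called 0 and leaving out 1 array gave 0 to 5. The F test called 2 without the lowest 25% of genes, a filter that removes Angpt2, Tek, Kdr and Emcn.

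The median r of Angpt1 with the 8 members was 0.104 after quantile normalization and turned to -0.147 after median subtraction, where r with Tek and Tie1 was 0.454 and 0.490 and r with Meis1 and Kit 0.913 and 0.867. Leaving out 1 array gave 0.149 to 0.332. The median over all genes was not computed under these alternatives. Median subtraction lowered the differences of HR-MDS and of MRP8hBCL2 against tethBCL2 by 0.17. It raised those of tethBCL2 against MRP8NRASD12 by 0.21. The array medians over all probe sets overlapped between these groups. They ran from 6.76 to 6.82 in tethBCL2, 6.77 to 6.80 in HR-MDS, 6.67 to 6.84 in MRP8hBCL2 and 6.70 to 6.88 in MRP8NRASD12 mice. Before subtraction, the median difference over all genes was 0.04, 0.03 and -0.05 in these comparisons. Whether the step removed a shift between arrays or added one was not tested. Under median subtraction, Tie1 lost its calls in MRP8hBCL2 against tethBCL2 (0.26) and in tethBCL2 against MRP8NRASD12 (-0.34). The Angpt1 difference between HR-MDS and tethBCL2 was followed under 20 alternatives. It kept its direction and moved by less than the spread between arrays under each. The one without MRP8NRASD12 8157 and HR-MDS 8398, added after the data were seen, was included. Array weights, eBayes with trend and robust settings, a fit of only the groups compared and the t-test were not among them. Of the values of single member differences under an alternative, 331 kept their direction and side of the threshold, 65 lost a call and 4 gained one. Of those of r with Angpt1 for Tek, Tie1, Meis1 and Kit, 42 were the same and 30 moved. The causes were not tested. No paired analysis was possible because no number pairs mice across groups.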
